A study of Homo sapiens with 36 samples.

Results

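The GDNF family of neurotrophic ligands, its GFRA co-receptors and the receptor tyrosine kinase RET were followed in 3 *BRAF*-V600E melanoma cell lines. The members were taken by gene symbol: the ligands *GDNF*, *NRTN* and *ARTN*, the co-receptors *GFRA1*, *GFRA2* and *GFRA3*, and *RET*. All 7 were found among 60656 genes in the 36 libraries. The set was chosen because *GDNF* and *GFRA2* moved with doxycycline (DOX) in cells given BRAFi + MEKi, so the values of that comparison are given below as a description, with no test.

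Ligands of the GDNF family signal through a pair of receptors. The ligand first binds a GFRA protein, which is held to the membrane by a lipid anchor and cannot signal by itself, and the complex then brings together and activates RET. GDNF prefers GFRA1, neurturin (NRTN) prefers GFRA2 and artemin (ARTN) prefers GFRA3, and the neural cell adhesion molecule NCAM1 can serve as a partner of GFRA1 in cells without RET. The pathway is best known from the growth of the kidney and the enteric nervous system, and melanocytes share a neural crest origin with the latter.

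RNA-Seq was performed on 1205LuTR-NR2F1 (here 1205Lu), WM793TR-NR2F1 (WM793) and A375TR-NR2F1 (A375). All groups, controls included, carried the Tet repressor and a lentiviral NR2F1 cDNA that DOX switches on. Cells of the DOX groups were induced with 100 ng/mL DOX for 24 hours. All cells were then kept for 72 hours in DMSO or in the BRAF inhibitor PLX4720 (1 μM) with the MEK inhibitor PD0325901 (35 nM), with 100 ng/mL DOX still present in the DOX groups, giving DMSO, DMSO + DOX, BRAFi + MEKi and BRAFi + MEKi + DOX. Each line had 3 numbered libraries per treatment, and the labels do not say whether these came from separate cultures. The paper describes the replicates of its in vitro work as independent experiments, in a general statement that does not name these libraries. The p-values measure the spread between these libraries. No group of these lines received DOX without the NR2F1 cDNA, so DOX and NR2F1 cannot be told apart. 1205Lu and WM793 were grown in a different medium from A375, so medium and line cannot be told apart for A375 either. In bulk RNA, fewer cells with a transcript and less of it per cell cannot be told apart.

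The deposited values are normalized expression levels per gene, which sum to between 27027800 and 34622000 per library. They are not read counts, but the commonest low value of a library, about the worth of 1 read, had a median of 0.998 over the libraries and reached 5.09 in WM793 DMSO replicate 1, the shallowest. *NR2F1*, the gene under DOX control, was higher in every DOX library than in any matching library without DOX, in all lines and under both DMSO and BRAFi + MEKi. Its mean rose 70.9-fold in WM793 and 46.4-fold in A375 under DMSO (limma, adjusted p = 0.0008 and 3.33e-07), whereas in 1205Lu the mean was 3.63-fold higher and did not pass the test (adjusted p = 0.412). Under BRAFi + MEKi, mean *NR2F1* rose with DOX 9.80-fold in 1205Lu, 24.5-fold in WM793 and 18.7-fold in A375 (limma, adjusted p = 0.00491, 0.00383 and 6.73e-06). In 12 libraries, at least 2 of each line, the highest correlation (Pearson, log2 values across genes) was with a library of another group. 1205Lu BRAFi + MEKi + DOX replicate 1 stood furthest apart and correlated with its own group at 0.970 and with 1205Lu BRAFi + MEKi replicate 1 at 0.979, although its *NR2F1* value was 35187. A375 BRAFi + MEKi replicate 3 was also among them (at most 0.980 within its group and 0.981 with A375 BRAFi + MEKi + DOX replicate 2), and WM793 DMSO replicate 1 correlated with its own group at only 0.967 to 0.970. The melanocyte lineage factor *SOX10* was at 5684 or above in every library, and *MITF*, *S100B* and *S100A1* were above 0 in every library. Among pigment genes, *PMEL* ran from 5.90 to 153, *DCT* was listed at 0 in some libraries and reached 537 in 1205Lu, 4742 in WM793 and 13702.5 in A375, *TYRP1* did not exceed 26.8, and *MLANA* and *TYR* were listed at 0 in all but 1 library each. Of markers of other cell types, the T cell gene *CD3E* did not exceed 1.19 in any library.

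The 250 bases before the outermost *GDNF* start (RefSeq, GRCh38.p14, chr5:37840042-37840291, minus strand) are shown because *GDNF* was the only member that passed the test for DOX under DMSO.
GDNF promoter: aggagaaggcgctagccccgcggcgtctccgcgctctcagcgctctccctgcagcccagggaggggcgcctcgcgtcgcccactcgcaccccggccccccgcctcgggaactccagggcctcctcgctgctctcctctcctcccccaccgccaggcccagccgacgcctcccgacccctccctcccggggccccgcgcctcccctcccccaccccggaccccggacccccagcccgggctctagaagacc
The window is 78.0% G and C, against a median of 58.0% over all 35116 promoter windows of this length. It was searched on both strands for AGGTCA, the short unit that nuclear receptors of the NR2F1 type recognize, which would be in capitals. Neither this window nor any other of the 13 windows searched, from 6 of the members, holds these letters, and 12.1% of all windows do. *GFRA2* is the member whose windows were not searched, and with so few windows nothing is read from the difference in share. The absence of these letters from a window of this size says nothing of binding elsewhere.

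*GDNF* lies on chromosome 5 (37812677 to 37840041, GRCh38, minus strand), *NRTN* on chromosome 19 (5805067 to 5828324, plus strand) and *ARTN* on chromosome 1 (43933320 to 43937240, plus strand). *GFRA1* (chromosome 10, 116056925 to 116276803, minus strand), *GFRA2* (chromosome 8, 21690398 to 21812357, minus strand), *GFRA3* (chromosome 5, 138252380 to 138274621, minus strand) and *RET* (chromosome 10, 43077064 to 43130351, plus strand) complete the set. Exons of *GDNF* share 681 bases with those of the antisense transcript *GDNF-AS1*. The library kit does not mark strand, so reads from the overlap cannot be told apart, and *GDNF-AS1* had a median value of 34.5 over the 36 libraries.

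Without DOX or inhibitors, *GDNF* was highest in 1205Lu and *GFRA1* was highest in WM793. *GDNF* values in DMSO were 7783, 6784 and 6886 in 1205Lu, 2827, 2442 and 1782 in WM793, and 531, 594 and 541 in A375. No library of one line overlapped with another. *GDNF* was lower in WM793 than in 1205Lu (log2 fold change, log2FC = -1.63 ± 0.29, SE, limma on log2(value + 1), adjusted p = 5.23e-05), and lower in A375 than in 1205Lu (log2FC = -3.68 ± 0.29, adjusted p = 7.3e-12) and than in WM793 (log2FC = -2.06 ± 0.29, adjusted p = 8e-07). Per kilobase of merged exons, mean *GDNF* in 1205Lu ranked 819th of 14301 protein-coding genes whose mean reached 1. It ranked 2542nd of 14258 in WM793 and 7408th of 15469 in A375.

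The co-receptor of GDNF followed another order among the lines. *GFRA1* in DMSO was 2335, 1879.8 and 2779 in WM793, 421, 227 and 318 in 1205Lu, and 42.3, 46.3 and 29.5 in A375. Per kilobase, its mean in WM793 ranked 5340th of 14258, in the middle part of the range. The 3 lines again did not overlap, and all pairwise differences passed the test (WM793 against 1205Lu, log2FC = 2.88 ± 0.49, adjusted p = 2.11e-05, A375 against 1205Lu, log2FC = -2.98 ± 0.49, adjusted p = 6.46e-06, and A375 against WM793, log2FC = -5.86 ± 0.49, adjusted p = 2.09e-11). *GFRA2*, the preferred co-receptor of neurturin, was low in DMSO, at 33.2, 53.9 and 54.2 in 1205Lu, 12.3, 24.4 and 37.1 in WM793, and 0, 0 and 2.80 in A375. Only A375 stood below the others for this gene (against 1205Lu, log2FC = -4.91 ± 0.66, adjusted p = 2.41e-07; against WM793, log2FC = -3.91 ± 0.66, adjusted p = 1.03e-05), and the ranges of 1205Lu and WM793 overlapped (log2FC = -1.004 ± 0.66, adjusted p = 0.286). In all, 2, 3 and 3 of 7 members differed between WM793 and 1205Lu, A375 and 1205Lu, and A375 and WM793, where 30.7%, 46.8% and 47.5% of 26779 genes did.

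The ratio of ligand to co-receptor also varied among lines. Per kilobase, mean *GDNF* was 51.1 times mean *GFRA1* in 1205Lu, 2.32 times in WM793 and 32.5 times in A375, all in DMSO. *NCAM1*, the alternative partner of GFRA1, was present in all libraries, from 130 in A375 to 12485 in 1205Lu. *RET* was not: it was listed at 0 in 21 of 36 libraries, and its highest value was 16.6.

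**Figure D1:**
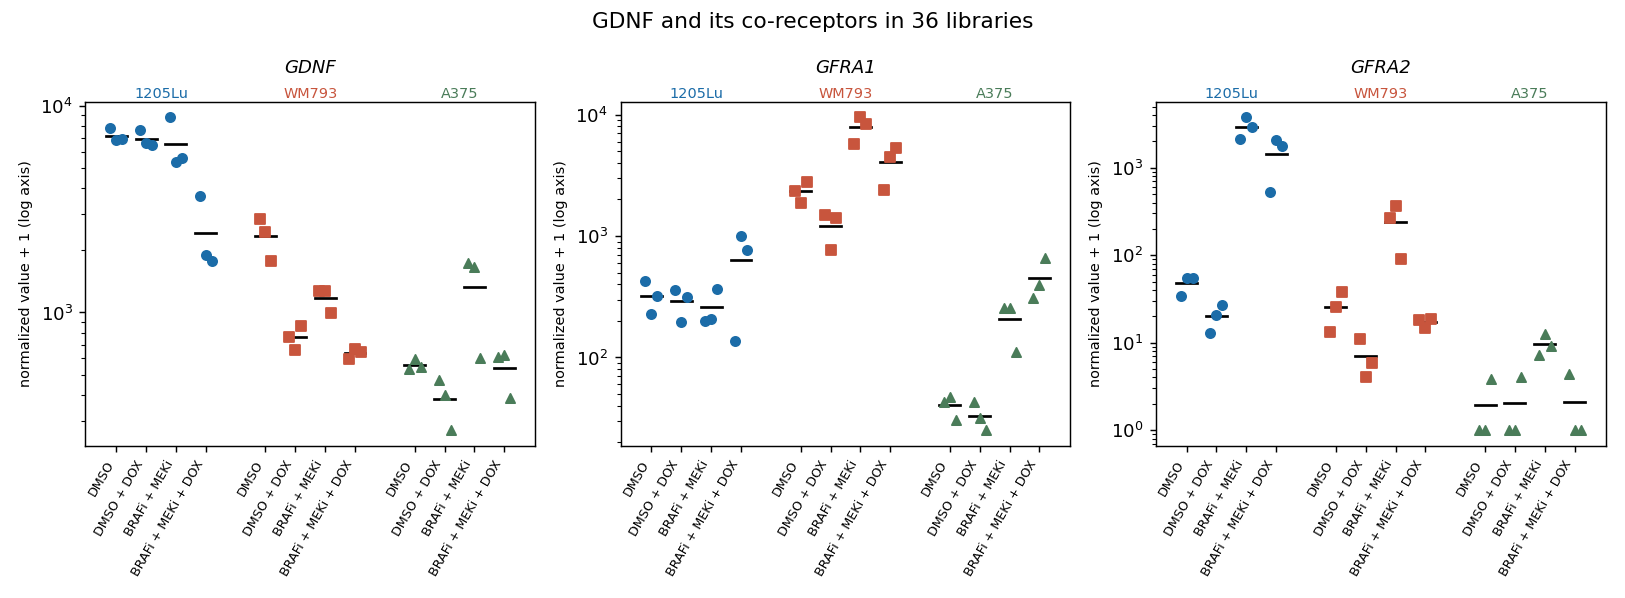
Normalized value + 1 (log axis) of *GDNF*, *GFRA1* and *GFRA2* in each of the 36 libraries, by cell line and treatment. Points are single libraries and black lines are means of 3. *GDNF* is highest in 1205Lu without the triple treatment (means 6555 to 7151), *GFRA1* in WM793 BRAFi + MEKi (mean 7827) and *GFRA2* in 1205Lu BRAFi + MEKi (mean 2926).

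To see what DOX did without the inhibitors, DMSO + DOX was compared with DMSO. The rule that chose the members did not use these libraries, although earlier results of these data were known. The test shares its estimate of the spread with the BRAFi + MEKi libraries, which the rule did use. In WM793, *GDNF* fell to 764, 660.2 and 861 from the DMSO values above, a mean 3.09-fold lower with no overlap between groups (log2FC = -1.61 ± 0.17, adjusted p = 0.00179, limma). It passed in each of the 6 fits that left out a library compared (adjusted p = 0.000456 to 0.0181). It was the only 1 of 6 members tested in WM793 to pass, where 0.512% of 22074 genes passed. In A375, *GDNF* was 471, 400.4 and 269 with DOX, below all 3 DMSO libraries, but the difference did not pass the test (log2FC = -0.58 ± 0.34, adjusted p = 0.706). In 1205Lu, *GDNF* was 7644, 6590.1 and 6423 with DOX, and the groups overlapped (log2FC = -0.06 ± 0.25, adjusted p = 1). None of the 6 members tested in 1205Lu and none of the 7 in A375 passed, where 0.00903% of 22144 and 0.0492% of 24370 genes did. *GFRA3* in 1205Lu and *RET* in WM793 had a mean under 1 in each group and were not tested. Before adjustment, *GFRA2* in 1205Lu and *RET* in A375 were the members under 0.05 in these lines, 1 in each (limma), and *RET* reached the minimum mean of 1 in A375 only through DMSO + DOX, so nothing is read from it.

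*GFRA2* was also at lower values with DOX in 1205Lu and WM793. It was 11.8, 19.9 and 26.2 in 1205Lu DMSO + DOX and 9.99, 3.10 and 4.85 in WM793 DMSO + DOX, and in both lines the DOX libraries lay below all DMSO libraries. Neither difference passed the test (1205Lu, log2FC = -1.28 ± 0.45, adjusted p = 0.652, and WM793, log2FC = -1.87 ± 0.59, adjusted p = 0.262). Lower values without overlap were seen for 6.95% of all genes tested for 1205Lu, 6.48% for WM793 and 6.12% for A375. *GFRA1* in WM793 was 1475, 769 and 1395 with DOX, below the DMSO libraries as well, and did not pass (log2FC = -0.98 ± 0.30, adjusted p = 0.243). In 1205Lu and A375 the *GFRA1* groups overlapped.

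The difference between lines in the DOX effect under DMSO was tested in a fit of all 36 libraries. For *GDNF*, the effect in WM793 was more negative than in 1205Lu by 1.55, which did not pass (log2FC = -1.55 ± 0.41, adjusted p = 0.154). This call depended on the model, since the difference passed when libraries were blocked by number (adjusted p = 0.0247) or given array weights (adjusted p = 0.0308) and in no other alternative run (adjusted p = 0.0778 to 0.354). No other member passed in any pair of lines. In these 3 contrasts 0.0784% (WM793 against 1205Lu), 0.0411% (A375 against 1205Lu) and 0.142% (A375 against WM793) of 26779 genes passed. Before adjustment, *GDNF* in WM793 against 1205Lu and *GDNF* and *GFRA2* in A375 against WM793 were under 0.05 (limma). *NR2F1* itself rose more in WM793 than in 1205Lu (log2FC = 4.46 ± 0.70, adjusted p = 0.00277), and its DMSO values in 1205Lu were already 6273, 2182 and 2327. The part played by this unequal induction in the *GDNF* values was not tested.

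With BRAFi + MEKi, DOX went with lower *GDNF* in all 3 lines, the observation by which the set was chosen. In 1205Lu, *GDNF* was 8778, 5324 and 5563 in BRAFi + MEKi and 3637, 1894 and 1769 in BRAFi + MEKi + DOX (log2FC = -1.47 ± 0.25). In WM793 it was 1266, 1274 and 991 without DOX and 593, 668 and 640.1 with it (log2FC = -0.88 ± 0.17). The groups did not overlap in either line. In A375, *GDNF* was 1731, 1666 and 605 without DOX and 611, 621 and 386 with it, so that BRAFi + MEKi replicate 3 lay within the DOX group (log2FC = -1.19 ± 0.34, and -1.69 without that library).

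*GFRA2* likewise had lower values with DOX under BRAFi + MEKi. In 1205Lu it was 2117, 3769 and 2891 without DOX and 528, 2057 and 1766 with it (log2FC = -1.19 ± 0.45). The lowest of these was replicate 1, the library that stood apart, and without it the difference was -0.58. In WM793, *GFRA2* was 267, 365 and 90.1 without DOX and 17.2, 13.7 and 17.9 with it, a mean 14.8-fold lower (log2FC = -3.60 ± 0.59). In A375 it was 6.28, 11.7 and 8.12 without DOX, and with DOX it was 3.36 in replicate 1 and listed at 0 in the others.

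The direction of the *GFRA1* difference with DOX under BRAFi + MEKi was not the same in all lines. In WM793 it was 5683, 9488 and 8310.0 without DOX and 2399, 4449 and 5289 with it (log2FC = -0.996 ± 0.30). In A375 it was 253, 256 and 109.6 without DOX and 305, 398 and 654 with it (log2FC = 1.16 ± 0.37, and 0.75 without BRAFi + MEKi replicate 3). Neither line showed overlap. In 1205Lu it was 198, 208 and 365 without DOX and 135, 1001 and 769 with it (log2FC = 0.93 ± 0.57), and replicate 1 was again the low library, without which the difference was 1.83. For reference, 0.334%, 0.204% and 1.52% of genes passed in this comparison in 1205Lu, WM793 and A375, 6.53%, 7.04% and 7.13% were lower without overlap, and 6.06%, 6.94% and 8.28% were higher without overlap. The members were chosen on this contrast, so nothing is read from these shares. Without replicate 1 of the BRAFi + MEKi + DOX group, 3.32% of genes passed in 1205Lu. Without replicate 2 or 3 of that group, 5 of 22323 or 6 of 22315 genes passed. Same-numbered libraries deviated together in 1205Lu and WM793 here, and blocking on the number gave 1.64% and 0.575%.

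**Figure D2:**
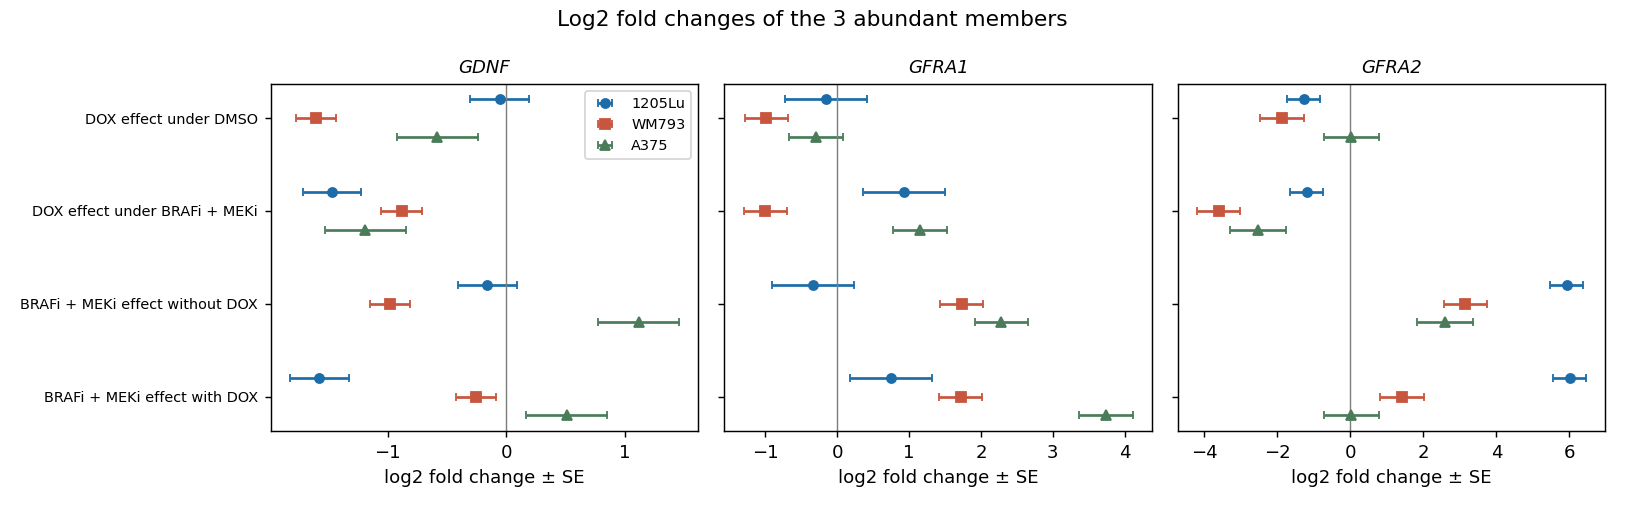
Log2 fold changes (limma, log2(value + 1)) of *GDNF*, *GFRA1* and *GFRA2* in 4 comparisons, with bars for the SE and 1 colour and symbol per cell line. The horizontal scale differs between panels. *GDNF* with DOX under BRAFi + MEKi lies between -1.47 and -0.88, *GFRA2* with BRAFi + MEKi without DOX between 2.60 and 5.92, and *GFRA1* with DOX under BRAFi + MEKi on both sides of 0.

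The response to the inhibitors themselves was read from BRAFi + MEKi against DMSO, both without DOX. *GFRA1* rose in WM793 and A375. In WM793 its mean increased 3.36-fold (log2FC = 1.73 ± 0.30, adjusted p = 0.000497) and in A375 5.24-fold (log2FC = 2.28 ± 0.37, adjusted p = 0.000262), without overlap in either line. In 1205Lu the BRAFi + MEKi values of 198, 208 and 365 overlapped with DMSO (log2FC = -0.34 ± 0.57, adjusted p = 0.696). *GFRA1* was the only 1 of the members tested here, which excluded *GDNF* and *GFRA2*, to pass in WM793 and A375, and none passed in 1205Lu, against 37.3%, 39.5% and 30.9% of genes tested in the same order. *RET* in 1205Lu was under 0.05 before adjustment (limma, adjusted p = 0.0891). The inhibitor effect on *GFRA1* was larger in A375 than in 1205Lu (log2FC = 2.62 ± 0.69, adjusted p = 0.00897) and in WM793 than in 1205Lu (log2FC = 2.07 ± 0.69, adjusted p = 0.0399), the latter not past the threshold in 8 of 12 fits that left out a library (adjusted p up to 0.0982). Counting *RET* in A375 against 1205Lu, a call that rests on 1 library (described further on), 1 of 5, 2 of 5 and 0 of 5 members tested differed in WM793 against 1205Lu, A375 against 1205Lu and A375 against WM793, where 14.5%, 14.7% and 22.8% of genes did.

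*GFRA2* had higher values with the inhibitors in all 3 lines. Its mean in 1205Lu went from 47.1 ± 12.1 (SD, n = 3) in DMSO to 2926 ± 827 in BRAFi + MEKi, 62.1-fold higher (log2FC = 5.92 ± 0.45, not tested because these libraries took part in the choice). In WM793 it was 9.78-fold higher (log2FC = 3.15 ± 0.59), and BRAFi + MEKi replicate 3, at 90.1, was the low one of that group. In A375 the inhibitor libraries lay between 6.28 and 11.7, above all DMSO libraries. Higher values without overlap were found for 24.1%, 25.5% and 27.5% of genes in 1205Lu, WM793 and A375. Per kilobase, mean *GFRA2* was 0.270 times mean *GFRA1* in 1205Lu DMSO and 21.0 times in 1205Lu BRAFi + MEKi, while in WM793 and A375 *GFRA1* stayed above *GFRA2* in each group.

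*GDNF* did not share one direction with the inhibitors. Without DOX its BRAFi + MEKi libraries overlapped with DMSO in 1205Lu (log2FC = -0.16 ± 0.25), lay below them in WM793 (log2FC = -0.98 ± 0.17) and above them in A375 (log2FC = 1.12 ± 0.34, and 1.61 without BRAFi + MEKi replicate 3). In WM793 the mean was 2.00-fold lower, at 1177 ± 161 (SD, n = 3) against 2350.4 ± 528. In A375 the mean was 2.40-fold higher, 1334 ± 632 against 555 ± 33.8. These differences were not tested, for the same reason as for *GFRA2*. Lower values without overlap were found for 19.3%, 19.9% and 24.7% of genes in 1205Lu, WM793 and A375.

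With DOX present in both groups, the inhibitors again raised *GFRA1* in WM793 (log2FC = 1.72 ± 0.30, adjusted p = 0.000664) and in A375 (log2FC = 3.73 ± 0.37, adjusted p = 8.11e-06), the latter a 14.1-fold higher mean. In 1205Lu the difference did not pass (log2FC = 0.75 ± 0.57, adjusted p = 0.360), but it did once BRAFi + MEKi + DOX replicate 1 was left out (log2FC = 1.64, adjusted p = 0.00354). *GFRA2* was 75.2-fold higher by its means in 1205Lu and 2.72-fold higher in WM793, without overlap in either. In A375, *GFRA2* was above 0 in 1 library of each DOX group, with means of 1.12 with the inhibitors and 1.02 without them, and the groups overlapped (log2FC = 0.03 ± 0.76, not tested). *GDNF* was 2.83-fold lower by its means in 1205Lu without overlap, and overlapped between groups in WM793 and A375. In this comparison 28.2%, 31.7% and 31% of genes passed in 1205Lu, WM793 and A375, and 0 of 4, 2 of 4 and 2 of 5 of the members tested. Besides *GFRA1*, these were *GFRA3* in WM793 and *RET* in A375, which met the filter only through groups in which they were high, so their calls are not read as results. Values without overlap were higher for 22.6%, 25.1% and 21.5% of genes and lower for 18.9%, 20.7% and 18.5%. Before adjustment 0 of 4 were under 0.05 in 1205Lu (limma), and 1 passed with array weights.

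The remaining members were low. *NRTN* was above 0 in every library, from 0.948 to 50.7 with a median of 13.3, and passed no test in any comparison. *ARTN* was listed at 0 in 4 libraries and did not exceed 20.0, its value in A375 BRAFi + MEKi replicate 3. *ARTN* also passed no test. Per kilobase, mean *GDNF* exceeded mean *NRTN* in all 12 groups, by 8.75 times in WM793 DMSO + DOX and by 192 times in 1205Lu DMSO + DOX at the extremes.

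*GFRA3*, the artemin co-receptor, was listed at 0 in 18 of 36 libraries and had its highest value, 8.12, in A375 BRAFi + MEKi + DOX. In WM793 it was 4.64, 3.44 and 1.82 with BRAFi + MEKi + DOX and 1.17, 0 and 0 with DMSO + DOX, values worth a few reads. The gene met the minimum mean of 1 in WM793 only through the inhibitor groups (means of 3.30 with DOX and 1.21 without), so the difference is a description (log2FC = 1.68 ± 0.57). *RET* in A375 was 0.544, 5.24 and 8.82 with DMSO + DOX and listed at 0 in all BRAFi + MEKi and BRAFi + MEKi + DOX libraries. It met the minimum mean in A375 only through DMSO + DOX (a mean of 4.87, against 0.871 in DMSO), so this difference too is a description (log2FC = -2.19 ± 0.59). In 1205Lu BRAFi + MEKi, *RET* was 16.6 in replicate 1 and 2.23 and 0.764 in the others. Its inhibitor effect differed between A375 and 1205Lu (log2FC = -2.79 ± 0.88, adjusted p = 0.0303), but of the 4 groups compared 1205Lu BRAFi + MEKi alone had a mean of at least 1 (6.52), and without its replicate 1 the difference was -1.83 (adjusted p = 0.118). This call rests on that library and is not read as a change.

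**Figure D3:**
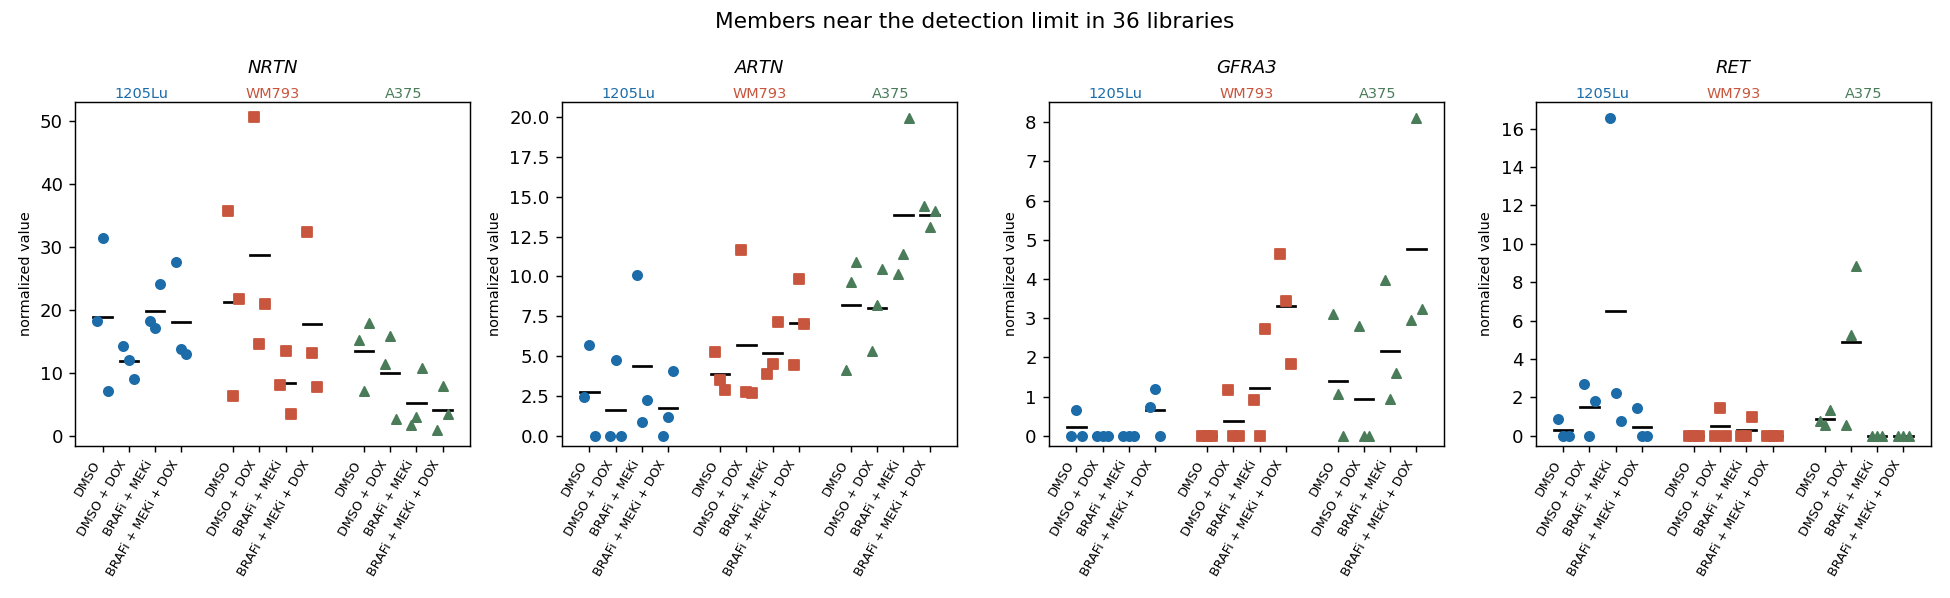
Normalized values (linear axis) of *NRTN*, *ARTN*, *GFRA3* and *RET* in each of the 36 libraries, by cell line and treatment, with black lines for the means of 3. The vertical scale differs between panels. Values do not exceed 50.7 for *NRTN*, 20.0 for *ARTN*, 8.12 for *GFRA3* and 16.6 for *RET*.

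Ordered by mean, the 12 groups of *GDNF* ran from 1205Lu DMSO (7151 ± 549.6, SD, n = 3) to A375 DMSO + DOX (380.1 ± 103). Of the 11 neighbouring pairs in that order, 8 overlapped in their library values. The gaps fell after 1205Lu BRAFi + MEKi, after WM793 DMSO and after WM793 BRAFi + MEKi. For *GFRA1*, 8 of 11 neighbours overlapped and the order ran from WM793 BRAFi + MEKi (7827 ± 1948) to A375 DMSO + DOX (32.2 ± 8.93). For *GFRA2*, 7 of 11 overlapped, and the 4 gaps fell after each of the 3 highest groups, 1205Lu BRAFi + MEKi, 1205Lu BRAFi + MEKi + DOX and WM793 BRAFi + MEKi, and after WM793 BRAFi + MEKi + DOX. All neighbours overlapped for *NRTN*, *ARTN*, *GFRA3* and *RET*.

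Other genes of the pathway were taken from lists of ligands, binding proteins, signal proteins and known targets. Of the remaining family, persephin (*PSPN*) was above 0 in all libraries, at 23.3 to 176, while its co-receptor *GFRA4* was listed at 0 in all 36 and *GFRAL*, the receptor of GDF15, was above 0 in 1. *PSPN* rose with BRAFi + MEKi in WM793 (log2FC = 1.30 ± 0.38, adjusted p = 0.0155) and A375 (log2FC = 0.74 ± 0.19, adjusted p = 0.00612), and its exons share 103 bases with the opposite-strand gene *ALKBH7*. The median value over the 36 libraries was 155 for *ALKBH7* and 71.7 for *PSPN*, and reads from the overlap cannot be told apart. *GDF15*, a distant relative of the family, fell with BRAFi + MEKi in all lines (1205Lu, WM793 and A375, log2FC = -4.42 ± 1.02, -2.77 ± 0.44 and -3.75 ± 0.45, adjusted p = 0.00478, 0.000255 and 1.88e-05).

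Among proteins that bind GDNF or GFRA1, *NCAM1* rose with BRAFi + MEKi in 1205Lu (log2FC = 0.86 ± 0.22, adjusted p = 0.00824) and WM793 (log2FC = 0.98 ± 0.09, adjusted p = 1.56e-06) and fell in A375 (log2FC = -1.57 ± 0.27, adjusted p = 0.0004). Exons of 3 opposite-strand genes overlap those of *NCAM1*. *SORT1*, a sorting receptor that binds GDNF family proteins, rose in all 3 lines (log2FC = 1.22 ± 0.23, 2.42 ± 0.18 and 1.36 ± 0.11, adjusted p at most 0.0012). *SDC3*, a heparan sulfate proteoglycan that can bind GDNF, rose in A375 (log2FC = 0.95 ± 0.14, adjusted p = 9.4e-05) and fell slightly in WM793 (log2FC = -0.38 ± 0.11, adjusted p = 0.0127). *SORL1* fell in 1205Lu (log2FC = -1.35 ± 0.30, adjusted p = 0.00388).

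A list of 12 genes known as targets of GDNF and RET in kidney had lower members in every line with BRAFi + MEKi. In 1205Lu 5 of 12 tested fell, in WM793 8 of 11 and in A375 8 of 11, against 14.4%, 16.9% and 19% of all genes tested, and 1 rose in A375. The median log2FC of the list was -1.43, -1.47 and -2.40, against 0.11, 0.15 and 0.06 over all genes tested. The inhibitors block BRAF and MEK directly, and the list holds genes tied to ERK, such as *SPRED2* and *DUSP6*. These counts therefore cannot speak of GDNF or RET signalling, whose part in the falls was not tested. *ETV4*, an ETS transcription factor, fell in each line (log2FC = -5.99 ± 0.32, -3.34 ± 0.33 and -7.13 ± 0.56), as did *ETV5* in 1205Lu (log2FC = -4.27 ± 0.33) and A375 (log2FC = -2.40 ± 0.35), the ERK inhibitor gene *SPRED2* in 1205Lu (log2FC = -1.47 ± 0.17) and WM793 (log2FC = -1.13 ± 0.11), and the ERK phosphatase gene *DUSP6* in A375 (log2FC = -3.13 ± 0.21), all with adjusted p at most 0.000106 (limma).

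Of the adaptors and signal proteins downstream of RET, 4 rose and 6 fell among 22 in 1205Lu, 4 and 4 among 22 in WM793 and 9 and 6 among 23 in A375, against 16.5%, 20.4% and 20.5% of all genes tested that rose and 14.4%, 16.9% and 19% that fell. *GAB1*, a docking protein, rose with BRAFi + MEKi in all lines (log2FC = 2.12 ± 0.31, 1.84 ± 0.17 and 2.75 ± 0.19, adjusted p at most 0.000219). *STAT3* rose in 1205Lu and A375 (log2FC = 0.80 ± 0.16 and 0.91 ± 0.10, adjusted p = 0.00197 and 8.45e-06). *PTPRF*, a receptor phosphatase that acts on RET, rose in WM793 (log2FC = 1.29 ± 0.19, adjusted p = 0.000151) and fell in A375 (log2FC = -2.05 ± 0.23, adjusted p = 1.2e-05).

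Regulators of RET and enteric neural crest genes moved in both directions with BRAFi + MEKi, with 6 rising and 2 falling among 11 in 1205Lu, 5 and 2 among 11 in WM793 and 3 and 4 among 12 in A375. The shares over all genes were those just given, 16.5%, 20.4% and 20.5% rising and 14.4%, 16.9% and 19% falling. *ZEB2* rose in all lines (log2FC = 1.53 ± 0.21, 2.03 ± 0.19 and 2.36 ± 0.24, adjusted p at most 9.7e-05), and *EDNRB*, the endothelin receptor of neural crest cells, rose in 1205Lu (log2FC = 2.88 ± 0.24, adjusted p = 2.01e-06). Of the genes known to act upstream of *GDNF* in kidney, 0 rose and 3 fell among 13 in 1205Lu, 1 and 6 among 13 in WM793 and 3 and 2 among 15 in A375, the A375 counts lying near the shares of all genes that rose (20.5%) and fell (19%). *EYA1* fell in WM793 (log2FC = -3.52 ± 0.27, adjusted p = 5.58e-07) and *FOXC1* fell in 1205Lu and WM793 but rose in A375 (log2FC = -1.18 ± 0.22, -1.81 ± 0.17 and 0.87 ± 0.17, adjusted p at most 0.00101). The proprotein convertase gene *PCSK2*, whose product cleaves precursor proteins, rose in all lines (log2FC = 2.72 ± 0.36, 2.45 ± 0.57 and 6.01 ± 0.91, adjusted p at most 0.00413).

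With DOX, few genes of the lists passed, as few genes did in all (0.00903%, 0.512% and 0.0492% under DMSO and 0.334%, 0.204% and 1.52% under BRAFi + MEKi, in 1205Lu, WM793 and A375). Under DMSO the gene of the lists to pass was *RARB*, the retinoic acid receptor beta, which rose in WM793 (log2FC = 2.20 ± 0.32, adjusted p = 0.0105). Under BRAFi + MEKi, *EDNRB* and *SDC3* fell in 1205Lu (log2FC = -1.34 ± 0.24 and -1.08 ± 0.20, adjusted p = 0.0315 and 0.035), and *IRS1*, an adaptor, rose in A375 (log2FC = 1.09 ± 0.22, adjusted p = 0.0222). No list gene passed in WM793 under BRAFi + MEKi. With same-numbered libraries paired in a block, *GRB10* and *PCSK6* also fell in 1205Lu and *GDF15* rose in WM793. Without 1205Lu BRAFi + MEKi + DOX replicate 1, *SORT1*, *ETV4*, *BMP4* and *ROBO2* fell and *DUSP6* rose in 1205Lu beside *EDNRB* and *SDC3*. In that fit 738 of all genes passed, against 74 with all libraries and 5 or 6 without replicate 2 or 3 of the same group. Whether *EDNRB* and *SDC3* passed without replicate 2 or 3 is not given here. Without A375 BRAFi + MEKi replicate 3, *GAB1* fell and *SPRY1* rose in A375 beside *IRS1*. That fit had 625 of all genes passing in A375, against 370 with all libraries and 224 without replicate 1 of the same group.

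Genes with the pattern most like that of each member were taken over the 36 libraries after the mean of each line was removed, among 16658 genes with a mean of at least 10. Such libraries share treatments and scaling, so these values describe the data and carry no test. For *GDNF* the closest was *LINC02119*, a long noncoding RNA gene on chromosome 5 (38025568 to 38184717, plus strand) that begins 185.5 kb beyond the outermost start of *GDNF* (Pearson r = 0.86), followed by the axon guidance receptor gene *ROBO2* (r = 0.77) and *CITED1* (r = 0.76). Within 1205Lu, WM793 and A375 alone, r between *GDNF* and *LINC02119* was 0.86, 0.90 and 0.88 over 12 libraries each. *LINC02119* had a mean of 284 ± 153 (SD, n = 3) in WM793 DMSO and 69.7 ± 40.1 in WM793 DMSO + DOX, and 360 ± 84.7 in A375 BRAFi + MEKi against 193 ± 60.3 in A375 BRAFi + MEKi + DOX. The genes did not always move together: in 1205Lu, mean *LINC02119* was 790.0 ± 58.2 in DMSO and 204 ± 79.3 in BRAFi + MEKi without overlap, while the *GDNF* groups overlapped (means of 7151 and 6555). The overlapping antisense transcript *GDNF-AS1* had other values of r with *GDNF* (r = -0.40, -0.10 and 0.65).

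**Figure D4:**
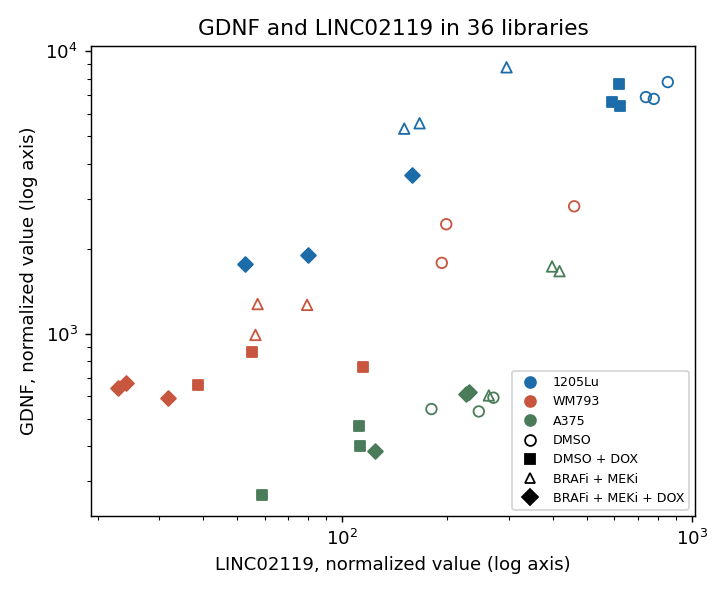
*GDNF* against *LINC02119*, normalized values on log axes, in the 36 libraries. Colours are cell lines, symbols are treatments and filled symbols are DOX groups. Within each line, libraries with more *LINC02119* tend to have more *GDNF* (r = 0.86, 0.90 and 0.88).

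For *GFRA1* the closest genes were the adhesion molecule gene *ALCAM* (r = 0.87), *CUBN* (r = 0.83) and *FHDC1* (r = 0.82). For *GFRA2* they were the class II antigen gene *HLA-DPB1* (r = 0.88), *PCAT7* (r = 0.87) and *C1GALT1C1L* (r = 0.86). For the low ligands r was smaller, with *LINGO1* for *NRTN* (r = 0.74) and *MBD6* for *ARTN* (r = 0.63) the highest. By the same measure r was 0.09 between *GDNF* and *GFRA1*, -0.04 between *GDNF* and *GFRA2* and 0.31 between *GFRA1* and *GFRA2*.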

How the data were processed

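Cells of 3 lines were profiled by RNA-Seq (TruSeq RNA Library Prep v2, which does not mark strand), in 12 groups of 3 libraries assigned from the labels. The authors deposited 1 signal value per gene and library, made with STAR, RSEM and DESeq2 on GRCh38 and scaled between libraries. The values are not whole reads, so no count test was run, although the design allowed for one. Symbols and places came from GENCODE 44 by unversioned gene ID, and promoter windows from RefSeq.

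log2(value + 1) was fitted with limma 3.58.1 (trend, R 4.3.3) over the 12 libraries of a line, or all 36 between lines, keeping genes whose mean reached 1 in some group, with Benjamini-Hochberg adjustment at 0.05. The fits were tested on simulated data. The members and gene lists were chosen with earlier results of these data known. No member was tested for DOX under BRAFi + MEKi, nor *GDNF* and *GFRA2* in any contrast with BRAFi + MEKi. Named pathway genes were at most 3 per list, line and comparison, those of smallest adjusted p, and the 3 genes most like each member by Pearson r. One gene of the lists is not reported here by name. Depth estimated from the commonest low value, taken as 1 read, was 6580540 to 60457200 reads per library, the lowest values being the least precise. Same-numbered libraries deviated together in every pair (r over 0.1) only for DOX under BRAFi + MEKi in 1205Lu (0.109 to 0.274) and WM793 (0.105 to 0.251). Alternatives were other pseudocounts, filters, scaling, weights, a replicate block, fewer libraries and leaving out each library.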

Additional observations from a re-analysis of the deposited data

Results flagged for a closer look

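The effect of BRAFi + MEKi without DOX on *GFRA1* differed between lines (limma, interaction of line and inhibitors), by 2.07 on the log2 scale between WM793 and 1205Lu (adjusted p = 0.0399) and by 2.62 between A375 and 1205Lu (adjusted p = 0.00897), with higher values in all 3 inhibitor libraries than in any DMSO library in WM793 and A375 and overlapping values in 1205Lu. The difference between WM793 and 1205Lu did not pass in 8 of 12 fits that left out a library. The effect on *RET* differed by -2.79 between A375 and 1205Lu (adjusted p = 0.0303), at values that did not exceed 16.6. The difference was -1.83 without 1205Lu BRAFi + MEKi replicate 1 (adjusted p = 0.118), the library that carries the mean of the single group in this contrast at or above 1. The *RET* call rests on that library and is not read as a change.

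In 2 cases every library of a line lay on the opposite side from those of another line. The *GFRA1* difference with DOX under BRAFi + MEKi was 2.15 higher in A375, where it was positive, than in WM793, where it was negative, and the *GDNF* difference with BRAFi + MEKi was 2.10 higher in A375 than in WM793. Neither difference between lines was tested, because the members were chosen with these libraries.

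Outside the 7 members, the inhibitor effect on *NCAM1*, which rose in 1205Lu and WM793 and fell in A375, differed by -2.43 between A375 and 1205Lu (adjusted p = 2.98e-06) and by -2.55 between A375 and WM793 (adjusted p = 4.07e-07). That on *PSPN* differed by 1.54 between WM793 and 1205Lu (limma, adjusted p = 0.0111). Reads from the exon overlap of *PSPN* and *ALKBH7* cannot be told apart.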

How the results depend on the processing

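Of 1983 recomputed log2 fold changes of members, none changed sign where called, 15 came to pass and 24 no longer passed. A further 1865 counted as the same. Tested ones among these kept direction and side of the threshold, and untested ones shifted by no more than the spread. The other 79 were untested ones that moved by more than the spread or tested ones that changed sign without passing in either fit. The number of members passing moved as follows, and the cause was not tested. For BRAFi + MEKi without DOX in 1205Lu it went from 0 to 1 with the replicate block (0 to 1 with a library left out), and in A375 from 1 to 2 with a pseudocount of 0.1. For BRAFi + MEKi with DOX it went from 0 to 1 in 1205Lu with array weights (0 to 1 with a library left out), from 2 to 1 in WM793 with a pseudocount of 0.1, a minimum mean of 10 or only the libraries compared (1 to 2), and from 2 to 1 in A375 with a minimum mean of 10 or only the libraries compared (1 to 3). For the line difference in the inhibitor effect it went from 1 to 0 in WM793 against 1205Lu without a filter (0 to 1) and from 2 to 1 in A375 against 1205Lu with a minimum mean of 10 or only the libraries compared (1 to 2). For the line difference in the DOX effect under DMSO in WM793 against 1205Lu it went from 0 to 1 with the replicate block or array weights, where *GDNF* passed (adjusted p = 0.0247 and 0.0308). For the lines under DMSO it was 3 to 4 with a library left out, for A375 against 1205Lu and against WM793 alike (3 with all). The fall of *GDNF* with DOX in WM793 passed under every alternative run (adjusted p = 0.000185 to 0.0181).

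Over all genes, the replicate block raised the number passing for DOX under DMSO from 113 to 284 in WM793 and from 12 to 79 in A375, and for DOX under BRAFi + MEKi from 74 to 364, 45 to 127 and 370 to 601 in 1205Lu, WM793 and A375. With 1 library left out, 1 to 7, 35 to 85 and 7 to 23 passed for DOX under DMSO in 1205Lu, WM793 and A375, fewest in WM793 without DMSO + DOX replicate 2 or 3. For DOX under BRAFi + MEKi, left out after seeing the data, the numbers were 5 to 738, 4 to 66 and 224 to 625, highest without 1205Lu BRAFi + MEKi + DOX replicate 1, WM793 BRAFi + MEKi + DOX replicate 1 and A375 BRAFi + MEKi replicate 3, and lowest without 1205Lu or WM793 BRAFi + MEKi + DOX replicate 2 and A375 BRAFi + MEKi replicate 1. Array weights gave 419 for DOX under DMSO in WM793, 23 in A375, and 9662 against 6252 for BRAFi + MEKi with DOX in 1205Lu (43.6% against 28.2%). For the line difference in the DOX effect under DMSO, the numbers of 21, 11 and 38 (WM793 against 1205Lu, A375 against 1205Lu and A375 against WM793) became 13 to 70, 3 to 40 and 21 to 75 with a library left out, 154, 26 and 98 with array weights, and 1, 1 and 3 with only the libraries compared. Outside those contrasts named as paired, r between same-numbered libraries was not over 0.1 in every pair, but a weaker pairing remains possible. For DOX under DMSO in WM793, r was 0.0850 to 0.148, and each DOX library deviated most like the DMSO library of its own number. The block could not be fitted between lines under DMSO. The counts of kidney target genes that fell, checked after seeing the data, were 6, 8 and 8 with the block. Depth limits *NRTN*, *ARTN*, *GFRA3* and *RET*, whose values are worth few reads.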
